A study of Mus musculus with 2 samples.

Results

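The nuclear genes for the subunits of oxidative phosphorylation (OXPHOS) were examined for PHLPP1-associated DNA in mouse bone marrow-derived macrophages. The 86 genes were the RefSeq protein-coding genes of chromosomes 1 to 19 whose symbols begin with Ndufa, Ndufb, Ndufc, Ndufs, Ndufv, Uqcr, Cox4, Cox5, Cox6, Cox7, Cox8 or Atp5, without the Ndufaf assembly factors, together with Sdha, Sdhb, Sdhc, Sdhd and Cyc1. They were 86 of 20665 protein-coding genes on these chromosomes. By symbol, 39 belong to complex I, 4 to complex II, 9 to complex III, 17 to complex IV and 17 to complex V. PHLPP1 is a protein phosphatase known for acting on the kinase AKT, and CUT&Tag maps the DNA near a protein by tethering a transposase to it through an antibody. The 2 groups were macrophages given IL-4 at 20 ng/ml for 4 h and untreated macrophages, with 1 library each. M-CSF at 20 ng/ml was used to raise both, and strain and age are not stated in the labels. The series text describes wild-type cells, but the labels also mention Phlpp1-deficient cells and give no genotype for either library, so wild type is taken from the series text. No library labelled with a control antibody or as Phlpp1-deficient was analysed here, so a peak is a place where fragments piled up in a library made with the PHLPP1 antibody. With 1 library a group there is no replicate spread and no test, and each difference below is between these 2 libraries.

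The respiratory chain passes electrons from NADH (complex I) or succinate (complex II) to ubiquinone, on through complex III and cytochrome c to oxygen at complex IV, and the proton gradient built on the way drives ATP synthesis at complex V. Nearly all of its subunits are encoded in the nucleus and a few in mitochondrial DNA, which was not analysed here. Macrophages given IL-4 are known to rely on mitochondrial respiration more than macrophages given inflammatory stimuli.

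Promoter sequences of 4 members are shown because they held the strongest IL-4 peak of their complex, among members with an entry in the RefSeq promoter table, for complexes I, III, IV and V. Each is 300 bases of GRCm38.p6, from 250 before the transcription start to 50 from it on, read 5′ to 3′ on the gene's own strand. Ndufa4 lies on the minus strand at chr6:11907401-11907700, Uqcrc1 on the plus strand at chr9:108936398-108936697, Cox7a2l on the minus strand at chr17:83514284-83514583 and Atp5l on the minus strand at chr9:44920693-44920992. Capitals mark motif letters, which are listed further on.
Ndufa4: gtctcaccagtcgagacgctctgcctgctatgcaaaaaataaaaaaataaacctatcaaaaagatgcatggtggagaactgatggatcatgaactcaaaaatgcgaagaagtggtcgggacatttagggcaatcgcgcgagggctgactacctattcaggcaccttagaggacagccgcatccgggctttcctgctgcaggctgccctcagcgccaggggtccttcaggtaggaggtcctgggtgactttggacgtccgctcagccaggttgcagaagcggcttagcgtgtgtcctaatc
Uqcrc1: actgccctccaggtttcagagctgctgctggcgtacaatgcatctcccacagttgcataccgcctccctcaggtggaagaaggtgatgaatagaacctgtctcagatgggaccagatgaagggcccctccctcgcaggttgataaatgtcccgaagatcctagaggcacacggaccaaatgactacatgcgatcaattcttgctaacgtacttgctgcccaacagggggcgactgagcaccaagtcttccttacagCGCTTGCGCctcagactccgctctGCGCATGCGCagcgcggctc
Cox7a2l: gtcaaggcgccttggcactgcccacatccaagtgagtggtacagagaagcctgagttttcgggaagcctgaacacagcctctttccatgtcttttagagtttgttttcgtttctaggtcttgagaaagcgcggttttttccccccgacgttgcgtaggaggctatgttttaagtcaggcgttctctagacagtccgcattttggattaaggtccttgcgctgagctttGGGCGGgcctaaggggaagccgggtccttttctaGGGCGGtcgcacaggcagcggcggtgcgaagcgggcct
Atp5l: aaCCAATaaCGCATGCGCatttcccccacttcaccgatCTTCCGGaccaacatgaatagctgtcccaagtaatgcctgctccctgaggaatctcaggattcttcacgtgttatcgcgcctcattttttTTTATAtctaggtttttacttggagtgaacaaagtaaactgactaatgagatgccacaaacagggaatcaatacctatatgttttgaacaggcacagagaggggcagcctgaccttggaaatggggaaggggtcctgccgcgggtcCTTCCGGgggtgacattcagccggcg

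A deposited peak counts here as a gene-end peak where its summit is at most 1 kb from an annotated gene end on either side. A gene said to have no peak in a list has no gene-end peak there, and may still hold peaks further inside. Of the 86 members, 54 (62.8%) had an IL-4 gene-end peak and 19 (22.1%) had an untreated one. Over all 20665 genes the shares were 51.5% with IL-4 and 24.0% untreated. The IL-4 list alone held a peak at 42 members (48.8%, against 36.9% of all genes) and both lists held one at 12 (14.0%, against 14.6%). Another 7 had a peak in the untreated list only, and 25 had none. The IL-4 list was the longer, with 240661 peaks against 149349, and cut to equal length it still held a gene-end peak at 48 members (55.8%, against 40.6% of all genes).

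The members stood further above all genes, in ratio, among peaks of moderate strength. With the deposited q values held to at most 0.05, 29 members (33.7%) had an IL-4 gene-end peak, against 19.2% of all genes, and 5 members (5.81%) had an untreated one, against 4.25%. At that q, 28 members (32.6%) had a peak in the IL-4 list only, against 17.7% of all genes, and 1 member (1.16%), Ndufs4, had one in both, against 1.59%. The 2 peaks of Ndufs4 at that q stood at opposite ends of the gene, with summits 99535 bp apart. At a −log10 q of at least 5 only Ndufa4, Cox7a2l and Cox4i1 had an IL-4 peak (3.49%), against 2.77% of all genes. No member had an untreated peak of that strength (0.0581% of all genes had) or one in both lists (0.0532%), so the same 3 were in the IL-4 list only, against 2.72%.

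Close neighbours moved with these shares, and their part in the result was not tested beyond the splits given here. Of the members, 48 (55.8%) had an end of another protein-coding gene within 1 kb of one of their ends, against 25.6% of all genes. Among genes with such a neighbour, 31 of 48 members (64.6%) and 65.3% of all genes had an IL-4 gene-end peak, and 13 of 48 (27.1%) and 30.3% had one at a q of at most 0.05. Among genes without one, the numbers were 23 of 38 members (60.5%) and 46.7% of all genes over all peaks, and 16 of 38 (42.1%) and 15.4% at a q of at most 0.05. The higher share of the members was thus seen among genes without a close neighbour and not among genes with one. Another gene shared the strongest IL-4 peak at 24 of the 54 members with one (44.4%, against 21.6% over all genes with such a peak). Not every sharing gene is named below. When every peak that 2 or more genes share was dropped, 36 members (41.9%) kept an IL-4 peak, against 42.0% of all genes, and at a q of at most 0.05 17 members (19.8%) did, against 13.6%.

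**Figure D1:**
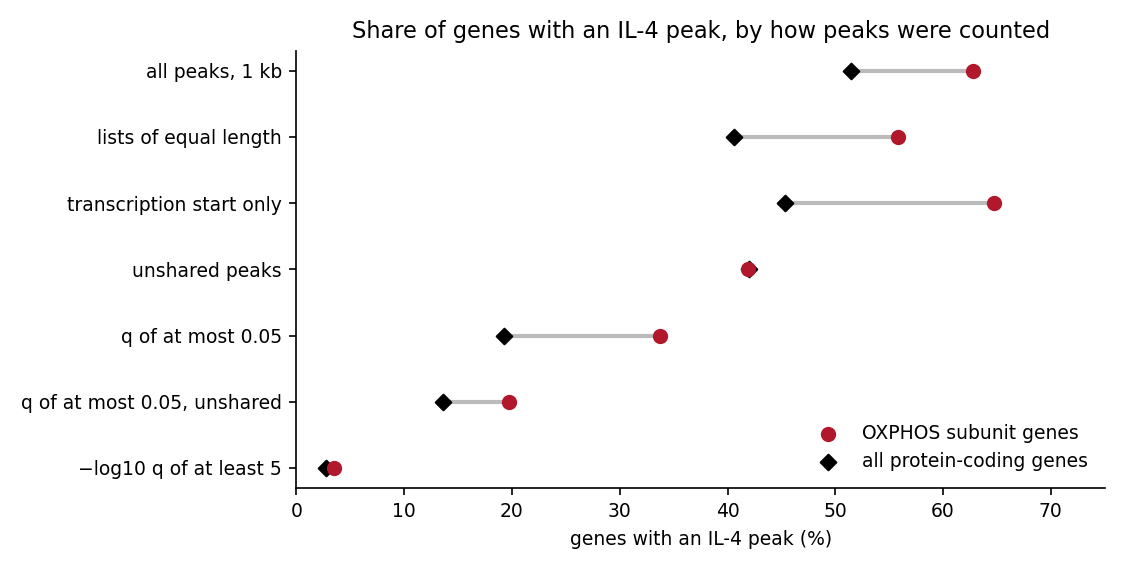
Share of genes with an IL-4 peak (x axis, percent) under 7 ways of counting peaks (rows), for the OXPHOS subunit genes (circles) and all protein-coding genes (diamonds). The circle lies right of the diamond in each row but that of unshared peaks, where both stand near 42.0%.

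Complex I, NADH dehydrogenase, held the strongest peak of all members, at Ndufa4. Ndufa4 had 22 fragments at its summit in the IL-4 list (exact Poisson 95% interval 13.8 to 33.3, counting error only) and a −log10 q of 17.2. The peak spans positions 11907276 to 11907805 of chromosome 6. The untreated list had no peak at either end of Ndufa4, and its nearest summit lay 32723 bp away. Phf14 starts on the other side and shares the peak, whose summit is 170 bp upstream of the Ndufa4 start. The symbol places Ndufa4 in complex I, but its protein is known to sit in complex IV.

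The next peaks of complex I were far weaker. Ndufb5, an accessory subunit gene sharing its peak with the mitochondrial ribosomal protein gene Mrpl47, had 8 IL-4 fragments (3.45 to 15.8) at a −log10 q of 3.40 and no untreated peak. Ndufa11, a subunit gene of the membrane arm, had 10 IL-4 fragments (4.80 to 18.4) at 3.11 near its start, in a peak shared with Vmac. An untreated peak of 5 fragments (1.62 to 11.7) stood near its other end. Ndufb2, Ndufv2 and Ndufb1, whose peak is shared with Cpsf2, had 7 IL-4 fragments each (2.81 to 14.4) at a −log10 q of 2.58. None of them had an untreated gene-end peak. The IL-4 peaks of these 3 genes had the same fragment number on the same local background of 0.643 fragments, so their strength was equal.

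Of the 32 accessory members of complex I, 18 (56.3%) had an IL-4 gene-end peak, near the 51.5% of all genes, and 12 (37.5%) had one at a q of at most 0.05, against 19.2% of all genes. Core subunit genes, whose products carry out electron transfer, had IL-4 gene-end peaks too, but of those named here only Ndufv2 and Ndufs7 reached that q. Beside Ndufv2, the core gene Ndufs7 had 8 IL-4 fragments at a −log10 q of 2.09. Ndufs8 (peak shared with Aldh3b1) had 6 IL-4 fragments, Ndufs1 (shared with Eef1b2) had 5, and Ndufs3 and Ndufv1 had 4 each. Ndufb4b and Ndufb4c are named as copies of Ndufb4 and had no gene-end peak in either list, while Ndufb4 had 6 IL-4 fragments. How reads that match several places were treated is not given in the sources used here, so these 3 loci are uncertain.

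Complex II, succinate dehydrogenase, had only weak peaks. Sdhb, the iron-sulfur subunit gene, had 3 IL-4 gene-end peaks of 6 fragments each, the strongest at a −log10 q of 1.40 beyond its 3′ end and the other 2 around its start, and no untreated gene-end peak. Further inside Sdhb the IL-4 list had a peak of 6 fragments at 1.84, and the untreated list one of 7 at 1.57. Sdhd, a membrane anchor gene that shares its peak with Timm8b, had 3 IL-4 fragments, the lowest number that list holds, and no untreated gene-end peak. An untreated peak of 5 fragments lay further inside Sdhd, with the summit 1311 bp from that of the IL-4 peak. Sdhc, the other anchor gene, had no IL-4 gene-end peak and an untreated one of 4 fragments (1.09 to 10.2), while an IL-4 peak of 6 fragments at 1.84 lay further inside the gene. Sdha, the catalytic flavoprotein gene, had none in either list.

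In complex III, 7 of 9 members had an IL-4 gene-end peak and 1 an untreated one. Uqcrc1, a core protein gene, had 8 IL-4 fragments (3.45 to 15.8) at a −log10 q of 3.40, with the summit 160 bp upstream of its start and no untreated peak. Uqcrq, a small subunit gene sharing its peak with Gdf9, had 9 IL-4 fragments (4.12 to 17.1) at 3.17 and no untreated gene-end peak. A second IL-4 gene-end peak of Uqcrq, of 6 fragments, overlapped an untreated peak. The nearest untreated summit was 143 bp from it and outside the 1 kb window. Uqcrh, the hinge protein gene next to Lrrc41, had 6 IL-4 fragments at 1.84 and no untreated peak. Uqcrc2, the partner of Uqcrc1 in the complex, was the reverse, with 4 IL-4 fragments at one end of the gene and 7 untreated fragments (2.81 to 14.4) at the other. The 2 catalytic subunits encoded in the nucleus, cytochrome c1 (Cyc1) and the Rieske protein (Uqcrfs1), had no gene-end peak in either list.

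Complex IV, cytochrome c oxidase, held the strongest peaks after that of Ndufa4. Cox7a2l encodes a protein known for joining complexes III and IV into supercomplexes rather than a subunit of the enzyme, and it had 16 IL-4 fragments (9.15 to 26.0) and a −log10 q of 8.98, with the peak spanning positions 83513892 to 83515020 of chromosome 17. At 1129 bp this was the widest gene-end peak among the strongest of each member, no other gene shares it, and the untreated list had none there. Cox4i1, the main regulatory subunit gene, had 14 IL-4 fragments (7.65 to 23.5) at 6.35, in a peak shared with Emc8 and Gm27021, and no untreated peak. Cox7c had 7 IL-4 fragments (2.81 to 14.4) at 2.58, and an overlapping untreated peak of 5 fragments. Cox6b1 had 7 IL-4 fragments at 2.58 near its 3′ end and no untreated peak.

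Of 8 isoform genes known mainly from particular tissues or conditions, 5 (62.5%, against 51.5% of all genes) had an IL-4 gene-end peak and 4 an untreated one (24.0% of all genes had). At a q of at most 0.05 the numbers were 0 and 2, against 19.2% and 4.25% of all genes, and 8 genes are too few to set them apart. Cox8b, a muscle isoform gene, had 3 IL-4 fragments and 7 untreated fragments (2.81 to 14.4), and Cox7a1, another muscle isoform gene, had 4 IL-4 and 7 untreated fragments at opposite ends of the gene. Cox8c, of testis, had 5 IL-4 fragments at one end and 4 untreated fragments at each end, the nearer summit 140 bp from that of the IL-4 peak. Cox4i2, of lung, and Cox6b2, of testis, had 4 IL-4 fragments each and no untreated peak. Cox7b2, of testis, had no IL-4 peak and 4 untreated fragments, and Cox6a2 and Ndufa4l2 had none in either list. Without the isoform genes, Cox7a2l, Ndufb4b and Ndufb4c, 28 of 75 members (37.3%) had an IL-4 gene-end peak at a q of at most 0.05, and 3 had an untreated one.

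Complex V, ATP synthase, had many peaks of similar, moderate height. Atp5l, encoding subunit g, had 10 IL-4 fragments (4.80 to 18.4) at a −log10 q of 3.44 and an overlapping untreated peak of 5 fragments (1.62 to 11.7). Atp5md had 7 IL-4 fragments at 2.58 in a peak shared with Pdcd11, and 4 untreated fragments at its other end. The catalytic β subunit gene Atp5b had 5 IL-4 fragments, and the α subunit gene Atp5a1, sharing its peak with Haus1, had 7 (2.81 to 14.4) at 2.56. Neither had an untreated peak. Of the 3 genes that encode the same mature c subunit of the rotor ring, Atp5g1 had 8 IL-4 fragments (3.45 to 15.8) at 3.35, Atp5g2 had 7 at 2.29 and Atp5g3 had none at its gene ends, and none of the 3 had an untreated peak there. Atp5g3 and Atp5j had IL-4 peaks of 5 and 8 fragments, the one of Atp5j also standing at the 5′ end of Gabpa, at annotated starts that lie inside the gene, 1138 and 881 bp from a gene end, which the 1 kb window around gene ends missed.

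**Figure D2:**
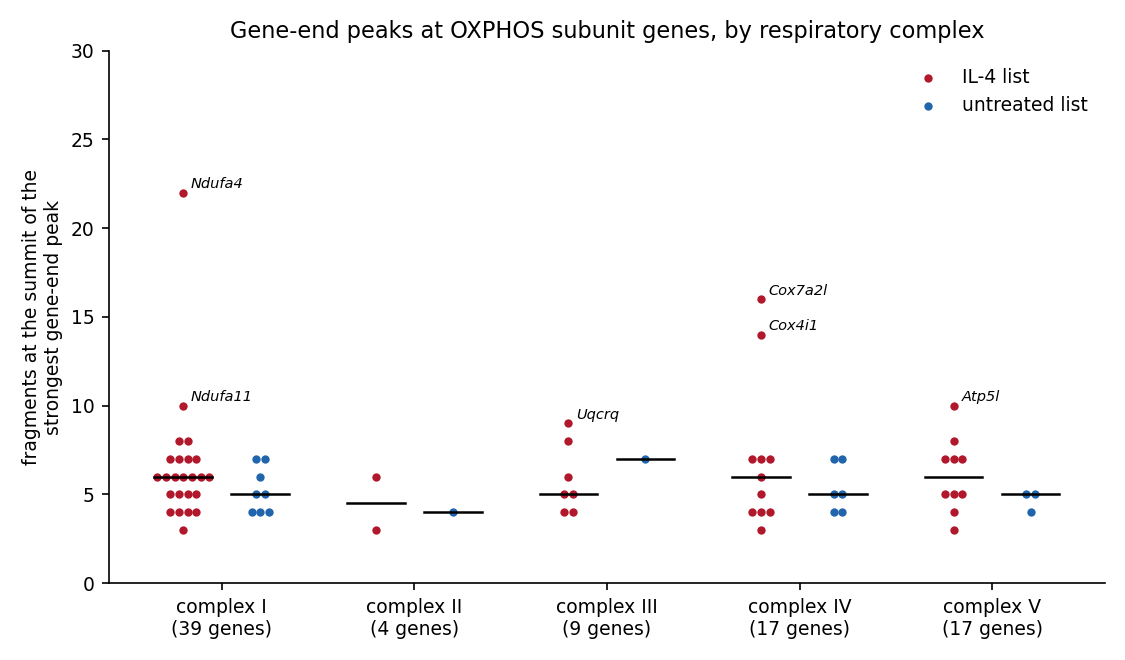
Fragments at the summit of each member's strongest gene-end peak (y axis), by respiratory complex (x axis), with IL-4 (left column of each complex) and untreated (right column). Each point is a gene with a peak in that list, bars are medians of these genes, and members without a listed peak are not drawn. Ndufa4, Cox7a2l and Cox4i1 lie at 22, 16 and 14 fragments in the IL-4 list, and no untreated point exceeds 7.

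Set side by side, the complexes with more than 4 members had IL-4 gene-end peaks at between 58.8% and 77.8% of their members, against 51.5% of all genes. An IL-4 gene-end peak stood at 24 of 39 members of complex I (61.5%), 2 of 4 of complex II, 7 of 9 of complex III (77.8%), 11 of 17 of complex IV (64.7%) and 10 of 17 of complex V (58.8%). At a q of at most 0.05 the numbers were 14 of 39 (35.9%), 1 of 4, 3 of 9 (33.3%), 6 of 17 (35.3%) and 5 of 17 (29.4%), against 19.2% of all genes. With shared peaks dropped, they were 14 of 39 (35.9%), 1 of 4 and 4 of 9 (44.4%) in complexes I to III. Complexes IV and V then had 11 of 17 (64.7%) and 6 of 17 (35.3%), against 42.0% of all genes. Untreated gene-end peaks stood at 8, 1, 1, 6 and 3 members of complexes I to V, where 24.0% of all genes had one. Of the 6 in complex IV, 4 were isoform genes. Among members with an IL-4 peak the median was 6 fragments in complexes I, IV and V and 5 in complex III, and it was 5 over all genes with such a peak. The complexes differ in size, and members are not replicates of a complex, so these counts order no complex above another.

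**Figure D3:**
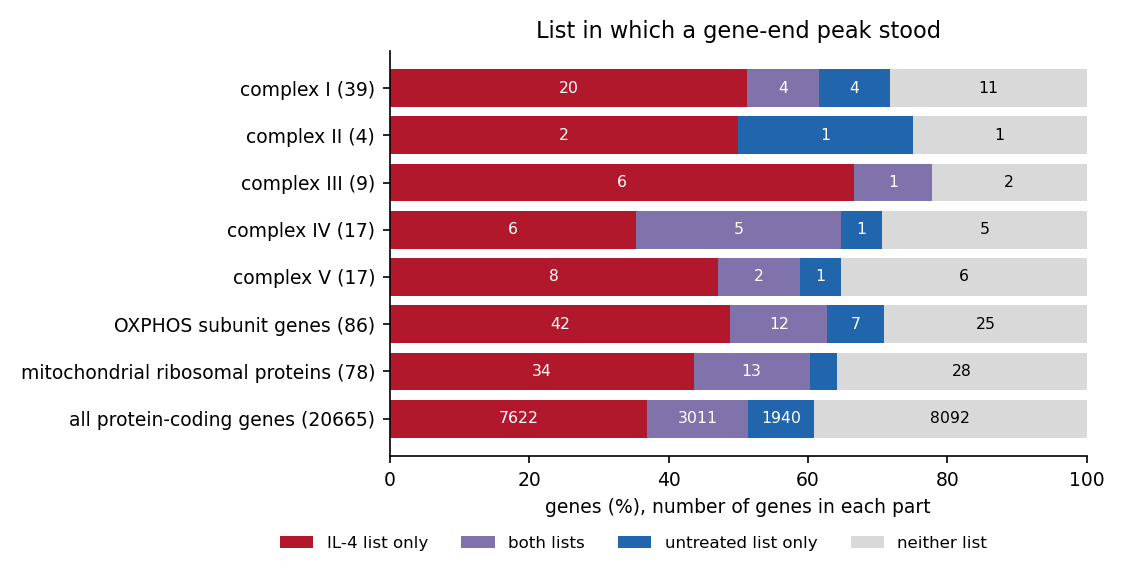
Share of genes (x axis, percent) by where they have a gene-end peak (IL-4 list alone, both, untreated list alone, neither), for each complex, all 86 OXPHOS subunit genes, 78 mitochondrial ribosomal protein genes and all 20665 protein-coding genes (rows). Numbers in the bars are genes, and the IL-4-only part holds 42 of the 86 subunit genes.

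Of the 12 members with peaks in both lists, 9 had an IL-4 and an untreated peak at the same end of the gene. The strongest peaks of the lists stood at the same end for 6 members and at opposite ends for the other 6, and of these Cox8c, Ndufs4 and Ndufa11 had a weaker or equal peak at the end where the other list had its own. At Uqcrc2, Cox7a1 and Atp5md the lists had no end in common, though the untreated peak of Atp5md overlapped an IL-4 peak beyond the 1 kb window, with summits 221 bp apart. Gene-end peaks of the lists overlapped by at least 1 bp at 3 members, Atp5l, Cox7c and Ndufa12. Atp5l had 10 IL-4 and 5 untreated fragments with summits 221 bp apart, Cox7c had 7 and 5 with summits 227 bp apart, and Ndufa12, a complex I accessory gene, had 6 and 5 with summits 52 bp apart. At none of the 3 did the Poisson intervals separate. Fragment numbers are not scaled for depth: the lowest local background, which follows depth and fragment length, was 0.643 fragments in the IL-4 library and 0.936 in the untreated library, which is 1.46 times as high in the untreated library.

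The strongest untreated peaks at the members were weak. Cox7a1, Cox8b, Uqcrc2 and Ndufa9 had 7 untreated fragments each (2.81 to 14.4) at a −log10 q of 1.57, and Ndufs4, a complex I accessory gene, had 7 at 1.53. Their strongest IL-4 peaks held 4 fragments at Cox7a1, 3 at Cox8b, 4 at Uqcrc2 and 6 at Ndufs4, and Ndufa9 had none. Ndufs4 had its 6 IL-4 fragments near the start, and near its 3′ end a second IL-4 peak of 5 fragments (−log10 q 1.26) with the summit 1161 bp from that of the 7 untreated fragments.

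Members with an untreated peak and no IL-4 peak included Ndufa9, Ndufc2, Atp5o, Sdhc, Ndufb7 and Cox7b2. Ndufc2, of the complex I membrane arm, had 6 untreated fragments 201 bp upstream of its start. Atp5o, encoding the OSCP subunit of the ATP synthase stalk, had 5 beyond its 3′ end. Ndufb7, sharing its peak with Tecr, had 4 untreated fragments, like Sdhc and Cox7b2, and 4 is the lowest number the untreated list holds.

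The members not yet described had either weak IL-4 peaks or none. Cox8a, a small complex IV subunit gene, had 7 IL-4 fragments at a −log10 q of 1.84 and 5 untreated fragments at the same end, without overlap of the peaks. Ndufv3, of the electron input module of complex I, had 5 IL-4 and 4 untreated fragments. Among IL-4-only members, Ndufa13 had 7 fragments, and Ndufa5, Ndufb6, Ndufb8 and Cox5a had 6 each at a −log10 q between 1.45 and 1.84. Ndufa8, Ndufb9, Uqcr10, Uqcr11, Atp5c1 and Atp5j2 had 5 IL-4 fragments each, Ndufa2, Ndufa10, Uqcrb and Atp5pb had 4, and Ndufs5 and Atp5k had 3. Those with 5 fragments or fewer did not reach a q of 0.05.

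No gene-end peak stood in either list at 25 members, of which 11 belong to complex I, 1 to complex II, 2 to complex III, 5 to complex IV and 6 to complex V. In complex I these were Ndufa3, Ndufa4l2, Ndufa6, Ndufa7, Ndufab1 (the mitochondrial acyl carrier protein), Ndufb3, Ndufb4b, Ndufb4c, Ndufb10, Ndufc1 and Ndufs6. In complex IV they were Cox5b, Cox6a1, Cox6a2, Cox6c and Cox7a2, and in complex V Atp5d, Atp5e, Atp5g3, Atp5h, Atp5j and Atp5mpl, beside Sdha, Cyc1 and Uqcrfs1 of complexes II and III. The list thus holds widely expressed subunit genes as well as isoform genes and copies. Ndufa7 had, like Atp5g3 and Atp5j, an IL-4 peak counted at an annotated start, of 4 fragments with the summit 929 bp downstream.

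The IL-4 peaks of the members lay mostly at the 5′ end, and the untreated ones did not. Where RefSeq gives a strand, the strongest IL-4 gene-end peak stood at the 5′ end of 38 members and at the 3′ end of 6 (86.4% at the 5′ end, against 74.3% over all genes), and the strongest untreated peak stood at the 5′ end of 7 and at the 3′ end of 8 (46.7%, against 56.8%). The other 10 members with an IL-4 peak and 4 with an untreated peak have no promoter entry and were not placed. An annotated transcription start was at hand for 68 members, and 44 of these (64.7%) had an IL-4 summit within 1 kb of one, against 45.3% of 16457 genes. Untreated summits lay there at 7 of 68 members (10.3%), against 16.5%.

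Within 600 bp of the start, the IL-4 list had 45 summits at the 68 members, or 11.0 per 100 genes per 200 bp, against 6.94 over all genes. Between 800 and 2000 bp from the start the members had 1.47 and all genes 2.08. In the untreated list the values within 600 bp were 1.47 at the members and 1.93 over all genes. The first 200 bp downstream of the start alone held 17 of the IL-4 summits of the members and no untreated one. Per 100 genes these were 25 and 0, against 10.8 and 2.41 over all genes, so few untreated summits lay there in any case.

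**Figure D4:**
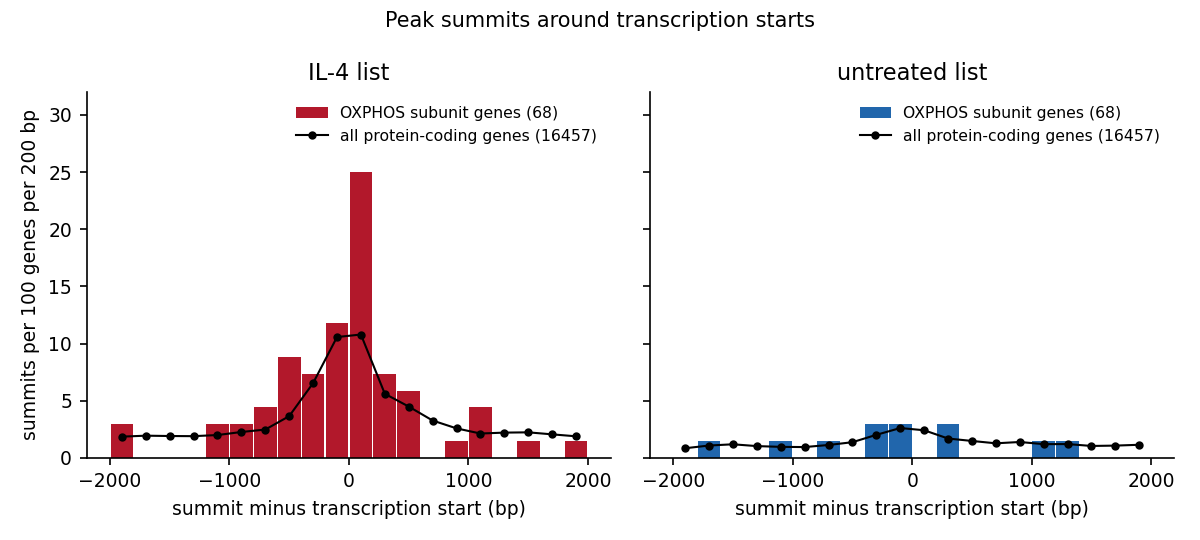
Peak summits per 100 genes in steps of 200 bp (y axis) by distance from the transcription start (x axis, bp, positive downstream), with IL-4 (left panel) and untreated (right panel). Bars are the 68 OXPHOS subunit genes with an annotated start and lines with points are 16457 protein-coding genes. The IL-4 bars reach 25 per 100 genes just downstream of the start, and 10.8 is the value over all genes there.

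The promoters were searched on both strands for 6 motifs of factors known at OXPHOS or housekeeping promoters, 1 window of 300 bases a gene. NRF1 letters (GCGCANGCG) stood in 19 of 68 member promoters (27.9%), against 9.08% of 16457 promoters. ETS or GABP letters (CCGGAAG) stood in 16 (23.5%, against 12.3%) and YY1 letters (AAGATGGCG) in 6 (8.82%, against 1.92%). NF-Y letters (CCAAT) were in 28 (41.2%, against 39.1%), SP letters (GGGCGG) in 28 (41.2%, against 47.3%) and TATA box letters (TATAAA) in 8 (11.8%, against 13.5%). A motif of 1 factor can overlap that of another in a promoter, and a match is a run of letters, not a bound site.

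Member promoters with and without an IL-4 peak at a start were then compared. NRF1 letters were in 12 of the 44 member promoters with an IL-4 peak at a start (27.3%) and in 7 of the 24 without (29.2%). For ETS or GABP the counts were 11 of 44 (25.0%) and 5 of 24 (20.8%), and for YY1 2 of 44 (4.55%) and 4 of 24 (16.7%). The median GC content was 56.7% with an IL-4 peak and 60.8% without, and 56.7% over all promoters. In the sequences shown above, the Ndufa4 window held none of the 6 motifs. The Uqcrc1 window held NRF1 letters beginning 6, 30 and 31 bp downstream of the start, the last 2 overlapping on opposite strands. The Cox7a2l window held SP letters at 22 bp upstream and 12 bp downstream. The Atp5l window held NF-Y, NRF1 and ETS or GABP letters 248, 241 and 212 bp upstream, TATA box letters 122 bp upstream and a further ETS or GABP match 24 bp downstream.

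Genes around the respiratory chain were read the same way, beside shares of 51.5% of all genes with an IL-4 and 24.0% with an untreated gene-end peak, or 19.2% and 4.25% at a q of at most 0.05. Of 13 citric acid cycle genes 9 had an IL-4 gene-end peak and 6 an untreated one, and at a q of at most 0.05 the numbers were 8 and 0. Suclg1, of succinyl-CoA ligase, had 26 IL-4 and 5 untreated fragments, Ogdh, of the 2-oxoglutarate dehydrogenase complex, had 16 and 6, and the citrate synthase gene Cs had 8 IL-4 fragments and no untreated peak. Of 50 assembly factor genes 33 (66.0%) had an IL-4 peak, near the 62.8% of the OXPHOS subunit genes, and 10 (20.0%) an untreated one. At that q the numbers were 13 (26.0%, against 33.7% of the subunit genes) and 2 (4.00%). Tmem126b, an assembly factor of complex I, had 13 IL-4 and 6 untreated fragments, Sdhaf2, which attaches flavin to Sdha, had 9 and 6, and Ndufaf8 had 9 and 11. Their strongest peaks are shared with Dlg2, Cpsf7 and Tepsin, in that order. Genes for regulators of nuclear or mitochondrial OXPHOS genes numbered 12. Of these, 9 had an IL-4 and 7 an untreated peak, and 5 and 0 at that q. Tfb1m, a mitochondrial rRNA methyltransferase gene, had 15 IL-4 and 5 untreated fragments. The nuclear receptor gene Esrra, whose peaks are shared with Catsperz, had 16 and 5. Gabpa, encoding the DNA-binding part of GABP, had 8 IL-4 fragments at its 5′ end and 5 untreated fragments at its 3′ end. The IL-4 peak of Gabpa is the same peak as that counted at a start of Atp5j.

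Cytochrome c and carrier genes numbered 3, all with an IL-4 peak and 2 with an untreated one. Cycs, encoding cytochrome c, had 9 IL-4 and 5 untreated fragments, the phosphate carrier gene Slc25a3 had 8 and 8, and the ADP/ATP carrier gene Slc25a4 had 5 IL-4 fragments and no untreated peak. Of 13 glycolysis genes 9 had an IL-4 and 4 an untreated peak, and 5 and 1 at a q of at most 0.05. Eno1 had 10 IL-4 fragments and no untreated peak, Pfkp had 9 and 7, and Pkm had 9 and 5. Mitochondrial ribosomal protein genes, also nuclear genes for mitochondrial proteins, had an IL-4 gene-end peak at 47 of 78 (60.3%) and an untreated one at 16 (20.5%), close to the 62.8% and 22.1% of the OXPHOS subunit genes. Peaks at a q of at most 0.05 stood at 17 of 78 (21.8%) and 2 of 78, against 29 of 86 (33.7%) and 5 of 86 subunit genes. Their share of genes with a close neighbour was 56.4%, near the 55.8% of the subunit genes.

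Marker genes were read at their ends too, where a peak does not measure expression. Of 10 macrophage marker genes 6 had an IL-4 gene-end peak and 1 an untreated one, and Adgre1, Csf1r, Itgam and Lyz2 had none in either list. Of 18 marker genes of T, B, neutrophil, erythroid and stromal cells 6 had an IL-4 and 5 an untreated peak. These cell types differed. Of 4 T cell markers 3 had an IL-4 and 3 an untreated peak, of 4 B cell markers 1 and 2, and of 4 neutrophil markers 2 and 0. None of the 3 erythroid and 3 stromal markers had a peak. At a q of at most 0.05 the IL-4 list had a peak at 2 of 10 macrophage and 0 of 18 other marker genes, and the untreated list at none of them. Over all genes the shares were 51.5% and 24.0%, and 19.2% and 4.25% at that q, so the macrophage markers did not stand out from all genes. Most peaks rested on few fragments, with a median of 4 fragments for IL-4 peaks and 5 for untreated ones, and the lowest listed numbers were 3 and 4. A gene without a listed peak is therefore not shown to lack fragments.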

How the data were processed

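CUT&Tag with a PHLPP1 antibody was done on 2 libraries, IL-4 and untreated, as the labels say. For each library 1 narrowPeak list was deposited by the authors. Per the submitters' processing notes the tools were DiffBind, MACS2 2.2.7.1 and Bowtie 0.12.8 and the build mm10, with no roles stated. Whether duplicates were removed, and what control the peak caller had, is not given in the sources used here. A deposited peak carries a fold, a −log10 p and a −log10 q, and a deposited score equal to 10 times the −log10 p without its decimals. The fold was read as a linear ratio of fragments to the authors' local background, with 1 added to each. These values describe and rank peaks within a list. Fragment numbers at summits were solved from fold and −log10 p as a Poisson tail, and a whole number was found within 0.01 for 100% of entries. Read totals were not used here, so depth is known only through the lowest local background. PCR copies are not independent molecules, and the exact Poisson 95% intervals cover counting error only.

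Entries with the same interval were reduced to their strongest summit. Gene ends came from the RefSeq table of GRCm38.p6, the build of mm10. Strands, starts and promoter sequences came from the RefSeq promoter table of the same build, which held 68 of the 86 members. The members, gene lists and motifs were chosen with earlier results of these data known. Genes were named by rule: the 15 members with the highest IL-4 −log10 q, the 5 highest of the untreated list, the 3 strongest of each complex and each pathway list, every complex II, isoform and untreated-only member. The values of 1 gene that the rule names are not reported here. Others were named after their values were seen, as were the core subunits, the mitochondrial ribosomal genes and the split by close neighbours chosen. Some listed pathway genes lie on chromosome X and were not used. Python 3.11.15, pandas 2.3.3 and scipy 1.17.1 were used, and the scripts were tested on simulated peaks.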

Additional observations from a re-analysis of the deposited data

How the results depend on the processing

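The thresholds on peaks set most counts. At a q of at most 0.05, 29 members had an IL-4 gene-end peak, 5 an untreated one and 1 both, in place of 54, 19 and 12, and 14, 1, 3, 6 and 5 members of complexes I to V had an IL-4 peak. Peaks with a −log10 q of 5 or more gave other numbers, which were 3 IL-4, 0 untreated, 3 IL-4 only and 0 both, and 1, 0, 0, 2 and 0 by complex. Unshared peaks gave 27 IL-4-only members (31.4%, against 31.4% of all genes) in place of 42. They left 14, 1, 4, 11 and 6 IL-4 members in complexes I to V. These were 35.9%, 25%, 44.4%, 64.7% and 35.3%, against 42.0% of all genes. Unshared peaks at a q of at most 0.05, an alternative chosen after seeing the data, gave 17 IL-4, 4 untreated, 16 IL-4-only and 1 both. These were 19.8%, 4.65%, 18.6% and 1.16%, against 13.6%, 3.47%, 12.5% and 1.05% of all genes. A 500 bp window gave 6 members with peaks in both lists (6.98%, against 7.25% of all genes). A 3 kb window gave 33 (38.4%, against 40.7%), with 36 untreated (41.9%, against 48.6%). Counting transcription starts alone gave 7 untreated (10.3%, against 16.5% of all genes) and 6 both (8.82%, against 9.86%). It gave 4 IL-4 members in complex III and 7 in complex IV (80% and 58.3%, against 45.3%), where members without an annotated start drop out. Without isoform genes and non-subunits, complex IV had 5 of 9 members with an IL-4 peak (55.6%, against 51.5% of all genes). Peaks of at least 4 fragments, lists of equal length, and any base of a peak in place of its summit kept each count over all members within 1.5 times. These settings were not counted by complex. Ndufa4 counted with complex IV (chosen after seeing the data) kept the IL-4 counts of complexes I and IV within 1.5 times. No paired analysis was possible because each group has 1 library. Few fragments per peak limit what the lists can show: the median peak rests on 4 fragments with IL-4 and 5 untreated, and with 1 library each nothing separates the libraries from the treatment.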

Other observations

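Inside the members, more than 1 kb from either end, the IL-4 list held 74 peaks in 35 genes and the untreated list 30 peaks in 17 genes. No share over all genes is given for such inner peaks, and gene length was not taken into account. The IL-4 list was also the longer, with 240661 peaks against 149349. At a q of at most 0.05 there were 7 and 5 inner peaks. The strongest IL-4 ones, of 8 fragments each at a −log10 q of 3.38, lay in Atp5j, on chromosome 16 from 84834407 to 84835257, where it is also the gene-end peak of Gabpa, and in Ndufa10, a complex I accessory gene, on chromosome 1 from 92457125 to 92457527. Cox7b2, the testis isoform gene with no IL-4 peak at its ends, had an inner IL-4 peak of 6 fragments, as had Ndufa4l2. Untreated ones had at most 7 fragments, as at Cox5a, Sdhb and, with 2 peaks, Ndufs4.

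Subunit genes on chromosome X stood outside the rule. Of these 3, Ndufb11 had an IL-4 gene-end peak of 5 fragments and no untreated peak, and Ndufa1 and Cox7b had none in either list.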
